A study of Mus musculus with 9 samples.

Results

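The cyclins, cyclin-dependent kinases (CDKs), E2F factors, Myc proteins and their regulators were followed through a set of mouse embryonic stem (ES) cell libraries in which the RNA of Yap1 had been raised or lowered. The members came from a list of 44 cell cycle genes, matched by symbol to the deposited expression table. Of these, 43 were present among 18504 genes, and Mycl1 was skipped because no row carries that symbol. The row Mycl, which RefSeq lists as the current name of Mycl1, is given once below but was not counted. Yap1 is a coactivator of transcription that the Hippo pathway restrains, and TEAD proteins carry it to DNA.

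The 9 libraries hold polyadenylated RNA of the ES cell line J1, strain 129S4/SvJae, at passages 5 to 7. The overexpression library Yap1_OE has the control BirA, and the knockout-labelled libraries Yap1_KO1 and Yap1_KO2 share the control ESC. The knockdown library Yap1_KD1 has a control labelled Control, and after differentiation the library dESC_Yap1_KD1 has the control dESC_control. The knockout group has 2 libraries and every other group has 1, and where 1 library is set against 1 no p-value is given, for want of replicates. The labels do not describe how Yap1 was knocked down, edited or overexpressed, nor how the cells were differentiated. The labels do not say whether Yap1_KO1 and Yap1_KO2 are different clones or cultures, and the spread behind their p-values may thus be technical.

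The mammalian cell cycle is driven by CDKs that are switched on by cyclins. D cyclins with CDK4 and CDK6 begin the inactivation of the Rb family, which releases E2F factors, and cyclins E, A and B then carry cells through S phase and mitosis with CDK2 and CDK1. ES cells are known for a short G1 phase, high cyclin E and a weakly acting Rb pathway, and Myc proteins are part of their self-renewal circuit. D cyclins and Myc proteins are where growth signals enter this machinery.

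Values are FPKM, fragments per kilobase of transcript scaled to the mapped fragments of each library, so levels can be set beside each other per length. Counts past 2-fold or 1.5-fold are on the scale of log2(FPKM + 1), on which the ratios of low values shrink. The depth estimated from the smallest steps between FPKM values ran from 9.23 M fragments in Yap1_KO1 to 22.4 M in Control (M, mega), so that a 2 kb transcript at 1 FPKM had about 18.5 to 44.8 fragments. Yap1 itself was at 139 FPKM in Yap1_OE against 46.7 in BirA, at 57.3 in Yap1_KO1 and 27.6 in Yap1_KO2 against 65.4 in ESC, at 4.55 in Yap1_KD1 against 37.4 in Control, and at 12.5 in dESC_Yap1_KD1 against 78.0 in dESC_control. Both knockout-labelled libraries kept Yap1 RNA, and what is said of them below holds for libraries carrying that label. Summed over 8 pluripotency markers, levels were 4071 to 6228 FPKM in the 7 undifferentiated libraries, 2551 in dESC_Yap1_KD1 and 1831 in dESC_control. Of 7 fibroblast markers only Thy1 and Col1a1 reached 1 FPKM in any library, and Lum, Dcn, Postn and Col3a1 were at 0.281 FPKM or less throughout.

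The mitotic kinases, the Cdc25 phosphatases and Wee1 lay within 1.5-fold of their control in every Yap1 comparison, and the members past 2-fold in any of them were Cdkn2a, Cdkn2b, Mycn, Rb1 and Ccnd2. In the undifferentiated knockdown, 35 of the 41 members that reached 1 FPKM in either library lay within 1.2-fold of Control, a share of 85.4%, beside 76.2% of all genes. The largest differences with Yap1 overexpression were in Cdkn2a, Cdkn2b and Mycn. The knockout-labelled libraries had less Mycn and lower D cyclins than ESC, of which Mycn alone passed the test, and the differentiated knockdown had more E2f1, Mybl2 and Mycn and less Myc, Mki67 and Cdkn2b than its control. D cyclins, E2f3 and both Myc genes also differed 2-fold or more among control libraries that were not labelled for any change of Yap1. In such bulk RNA, fewer cells in a phase and less RNA per cell cannot be told apart.

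**Figure D1:**
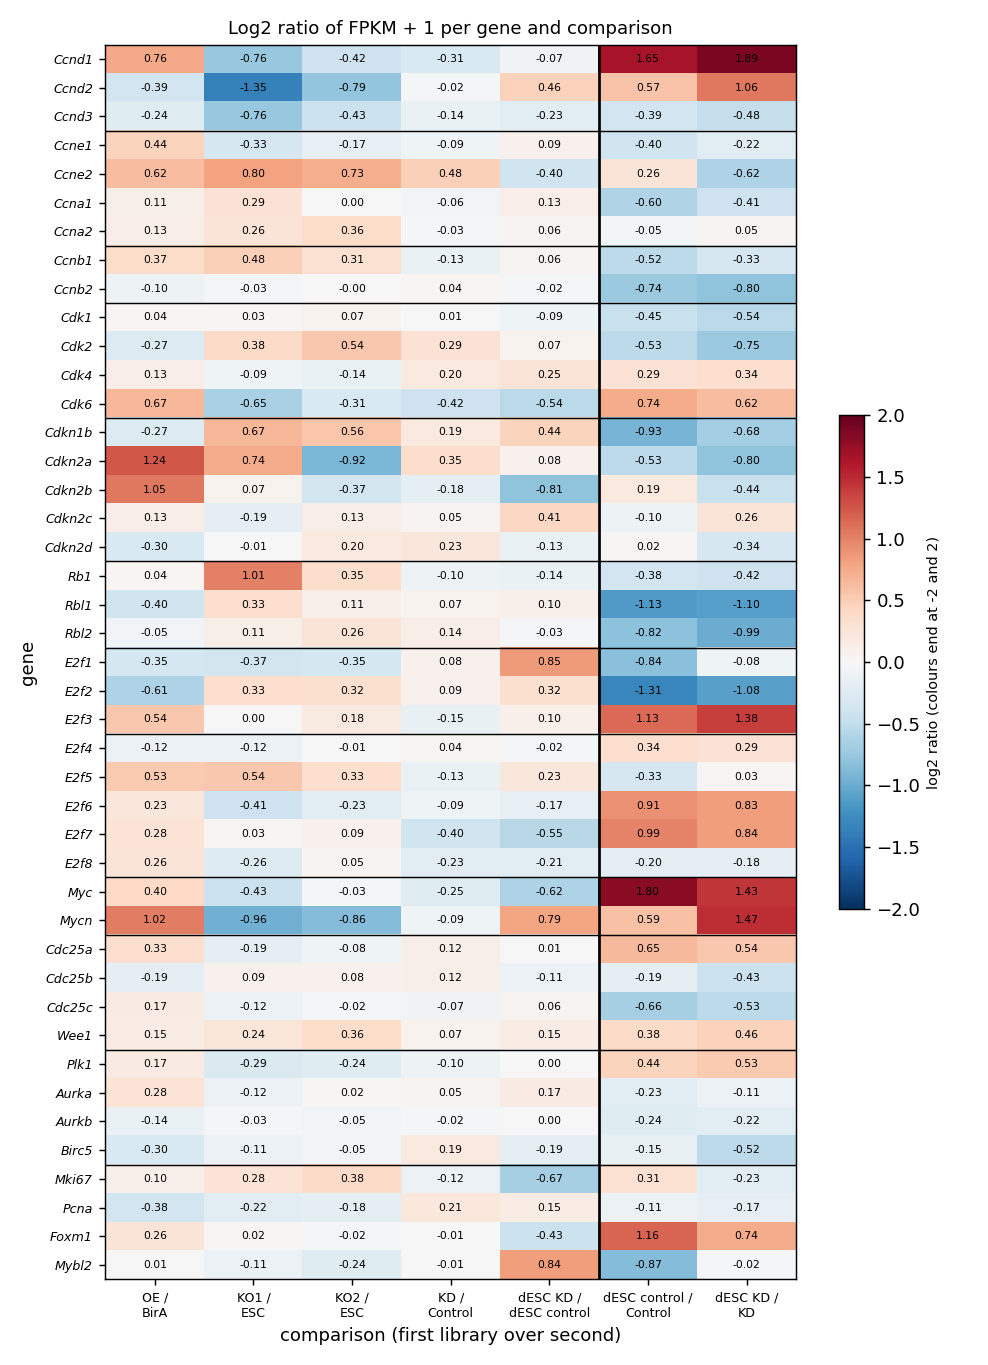
Log2 ratio of FPKM + 1 for the 43 members (rows, grouped by role) in 5 comparisons of a perturbed library with its control and, right of the thick line, in both comparisons of differentiated with undifferentiated cells. Rows of the mitotic kinases stay pale in the 5 columns at left, between -0.30 and 0.28, while Cdkn2a, Ccnd2 and Mycn reach 1.24, -1.35 and 1.02.

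Differences among the controls come first. BirA, ESC and Control are single libraries of separate arms. Differences between arms and variation between libraries cannot be told apart in their range, which does not measure the variation within an arm. The knockout fit with BirA and Control added as controls, used below, has no arm term and the same limit. Myc, the transcription factor that growth signals induce, was at 19.1 FPKM in BirA, 49.8 in ESC and 9.97 in Control, a 5.00-fold range. Ccnd1, cyclin D1, was at 39.8 FPKM in BirA, 73.4 in ESC and 27.2 in Control. Ccnd2, cyclin D2, was at 4.82 FPKM in BirA, 14.1 in ESC and 4.88 in Control. For all of these ESC, the control of the knockout-labelled libraries, was the highest. Ccnd3, cyclin D3, was likewise highest in ESC, with 151 FPKM in BirA, 248 in ESC and 118 in Control. E2f3, an activating E2F, was at 9.81 FPKM in BirA, 16.9 in ESC and 7.85 in Control. Mycn, the paralog of Myc that is abundant in ES cells, had another order, with 120.2 FPKM in BirA, 104 in ESC and 54.0 in Control. On the log2(FPKM + 1) scale 6 of 41 members spanned 2-fold or more over the 3 undifferentiated controls, or 14.6%, where 5.03% of all genes did. The median range was 0.551 for members and 0.386 for all genes. In Control over ESC, 0 of 41 members were 2-fold higher and 5 were 2-fold lower, beside 2.63% and 1.71% of all genes. ESC was the highest of the 3 for 21 of 41 members and for 39.5% of all genes.

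**Figure D2:**
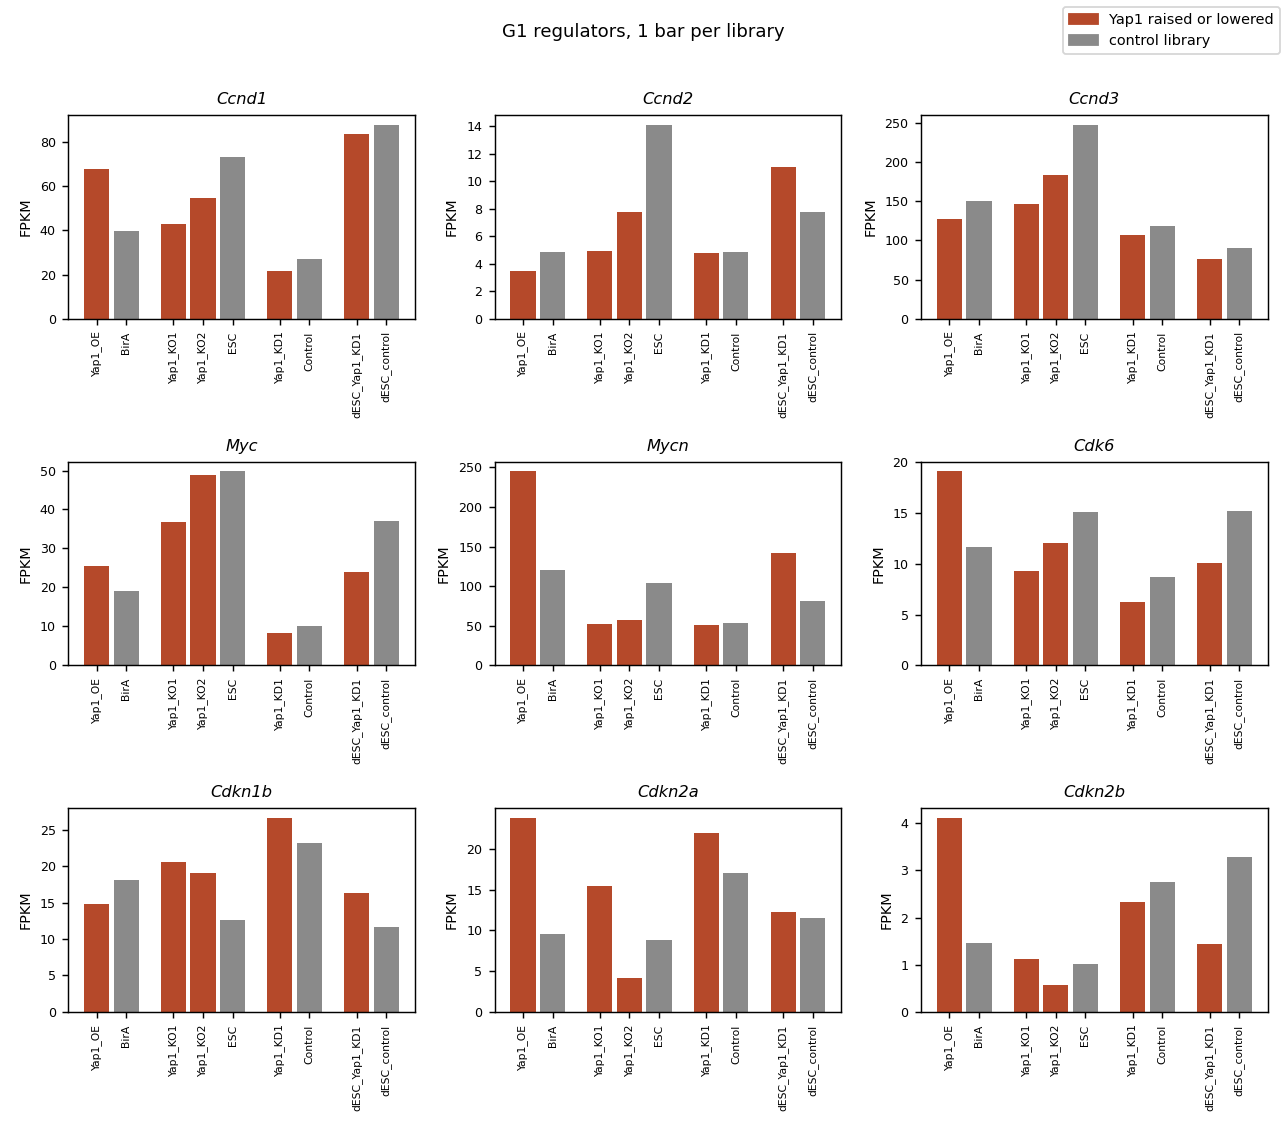
FPKM (vertical axis, from 0) of 9 G1 regulators, 1 bar per library, with perturbed libraries in red left of their grey controls. The ESC bar is the highest of the undifferentiated controls for Ccnd1, Ccnd2, Ccnd3 and Myc, and the Mycn bar of Yap1_OE, at 245 FPKM, is the highest in its panel.

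Among the D cyclins, which bind CDK4 and CDK6 in G1, the libraries labelled as knockouts were below ESC in every case. Ccnd1 was at 42.8 and 54.6 FPKM in Yap1_KO1 and Yap1_KO2 against 73.4 in ESC. Ccnd2 was at 4.93 FPKM in Yap1_KO1 and 7.73 in Yap1_KO2 against 14.1 in ESC. Ccnd3 was at 146 FPKM in Yap1_KO1 and 184 in Yap1_KO2 against 248 in ESC. All 6 values lay inside the range of the 3 undifferentiated controls. By limma with Benjamini-Hochberg adjustment none passed: the log2 change was -1.07 (SE 0.24, adjusted p = 0.0825) for Ccnd2, -0.60 (SE 0.15, adjusted p = 0.0909) for Ccnd3 and -0.59 (SE 0.16, adjusted p = 0.103) for Ccnd1. With BirA and Control added as controls the log2 change of Ccnd1 was 0.16 (limma, adjusted p = 0.813), in the other direction, that of Ccnd2 was -0.16 (adjusted p = 0.845) and that of Ccnd3 was near 0 (adjusted p = 0.997). With the trend over transcript GC content removed, the log2 change was -1.17 for Ccnd2 (limma, adjusted p = 0.0649), -0.56 for Ccnd1 (adjusted p = 0.121) and -0.39 for Ccnd3 (adjusted p = 0.203). In the undifferentiated knockdown the D cyclins were close to Control, with 21.8 FPKM of Ccnd1 in Yap1_KD1 against 27.2 in Control and 4.78 FPKM of Ccnd2 in Yap1_KD1 against 4.88 in Control. With Yap1 overexpression Ccnd1 was higher, at 67.9 FPKM in Yap1_OE against 39.8 in BirA, while Ccnd2 was at 3.46 FPKM in Yap1_OE against 4.82 in BirA and Ccnd3 at 128 in Yap1_OE against 151 in BirA. The 67.9 FPKM in Yap1_OE is below the 73.4 FPKM of ESC.

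Cdk4 and Cdk6, the kinases of the D cyclins, behaved differently. Cdk4 was the most abundant member in every library, between 362 and 528 FPKM, and the lowest and highest library were 1.46-fold apart. Cdk6 was at 19.1 FPKM in Yap1_OE against 11.6 in BirA. It was at 9.26 and 12 FPKM in Yap1_KO1 and Yap1_KO2 against 15.1 in ESC, and at 6.22 FPKM in Yap1_KD1 against 8.66 in Control. In differentiated cells it was at 10.1 FPKM in dESC_Yap1_KD1 against 15.2 in dESC_control. Cdk6 thus stood above its control where Yap1 RNA was raised and below it in each of the 4 libraries labelled for its loss. Its log2 change in the knockout-labelled pair was -0.48 (SE 0.18, limma, Benjamini-Hochberg adjusted p = 0.165), and in the joint fit of the undifferentiated knockout and knockdown arms -0.46 (SE 0.16, adjusted p = 0.522). Both knockout-labelled values lay inside the range of the undifferentiated controls, 8.66 to 15.1 FPKM. With BirA and Control added as controls the change in the knockout fit was -0.12 (limma, adjusted p = 0.787). With the GC trend removed it was -0.66 (limma, adjusted p = 0.129).

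The CDK inhibitors fell into a well expressed and a scarce set. Cdkn1b, which inhibits CDK2 complexes, ran opposite to Cdk6, below its control in overexpression and above it in the 4 libraries labelled for loss. It was at 14.8 FPKM in Yap1_OE against 18.1 in BirA, and at 20.6 and 19.0 FPKM in Yap1_KO1 and Yap1_KO2 against 12.6 in ESC. It was at 26.6 FPKM in Yap1_KD1 against 23.2 in Control, and at 16.3 FPKM in dESC_Yap1_KD1 against 11.7 in dESC_control. Both knockout-labelled values lay inside the range of the 3 undifferentiated controls, 12.6 to 23.2 FPKM. The log2 change of Cdkn1b in that pair, 0.61 (SE 0.13), missed the threshold with an adjusted p of 0.0768 by limma. With genes kept from 5 FPKM upward the same change had an adjusted p of 0.0492 by limma. That setting called 213 of 8456 genes higher, where the main setting called 10 of 11444. With the GC trend removed the change of Cdkn1b was 0.36 (limma, adjusted p = 0.249), and with BirA and Control added as controls 0.17 (adjusted p = 0.679). In the joint fit it was 0.43 (SE 0.15, limma, adjusted p = 0.517).

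Cdkn2a, the locus of the CDK4 inhibitor Ink4a and of Arf, which stabilises p53, differed more within the knockout pair than between any perturbed library and its control. It was at 15.5 FPKM in Yap1_KO1 and 4.22 FPKM in Yap1_KO2, on either side of 8.87 in ESC. In Yap1_OE it was at 23.8 FPKM against 9.53 in BirA, the largest log2 ratio of a member in that comparison (1.24), but Yap1_KD1 had 22 FPKM as well, against 17.1 in Control. A gene-level value cannot say which of the overlapping products changed. Cdkn2b, the neighbouring Ink4b inhibitor, was at 4.11 FPKM in Yap1_OE against 1.46 in BirA, and at 1.44 FPKM in dESC_Yap1_KD1 against 3.28 in dESC_control. These values stand for about 125 and 29.7 fragments in Yap1_OE and BirA, and for about 26.4 and 88.0 in dESC_Yap1_KD1 and dESC_control. Cdkn2d, the Ink4d inhibitor, stayed between 0.287 and 1.37 FPKM. Cdkn2c, the Ink4c inhibitor, did not reach 0.5 FPKM in any library and is listed at 0 in Yap1_KO1. The context list of other cell cycle regulators, of which 0 of 25 were called by limma in the knockout fit, holds further inhibitors. Cdkn1c, an imprinted inhibitor of the Cdkn1b family, was at 5.51 and 4.99 FPKM in Yap1_KO1 and Yap1_KO2 against 12.5 in ESC. It was at 7.37 FPKM in Yap1_KD1 against 12.2 in Control, and at 24.3 FPKM in Yap1_OE against 15.1 in BirA. In dESC_Yap1_KD1 it was at 14.7 FPKM against 16.6 in dESC_control. Cdkn1a went the other way in overexpression and the undifferentiated knockdown. It was at 28.9 FPKM in Yap1_OE against 41.7 in BirA and at 51.5 in Yap1_KD1 against 35.6 in Control. It was at 21.2 and 16.3 FPKM in Yap1_KO1 and Yap1_KO2 against 22.7 in ESC.

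The Rb family, which holds E2F factors in check, was low in all libraries. Rb1 was between 1.35 and 3.73 FPKM. The highest and lowest values were those of Yap1_KO1 and ESC, a log2 ratio of 1.01, and Yap1_KO2 was at 2.0 FPKM. Rbl1, the p107 pocket protein, was at 4.88 FPKM in dESC_Yap1_KD1 against 11.6 in Yap1_KD1 and at 4.51 in dESC_control against 11.1 in Control. The other undifferentiated libraries were nearer to the differentiated ones, between 5.56 FPKM in ESC and 7.85 in BirA. Rbl2, the p130 pocket protein, was at 0.280 FPKM in dESC_Yap1_KD1 against 1.54 in Yap1_KD1 and at 0.308 in dESC_control against 1.31 in Control. Here too the other undifferentiated libraries were lower than that arm, from 0.439 FPKM in Yap1_OE to 0.794 in Yap1_KO2.

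E2f1, an activating E2F of the G1 to S transition, differed most in differentiated cells. It was at 22.5 FPKM in Yap1_OE against 29.1 in BirA and at 18.8 and 19.0 FPKM in Yap1_KO1 and Yap1_KO2 against 24.5 in ESC. In undifferentiated cells it was at 28.6 FPKM in Yap1_KD1 against 27.0 in Control. After differentiation it was at 27.0 FPKM in dESC_Yap1_KD1 against 14.6 in dESC_control, so the differentiated knockdown stood at the level of the undifferentiated Control. E2f2, a second activating E2F, was at 2.12 FPKM in dESC_Yap1_KD1 against 1.5 in dESC_control and at 8.88 and 8.8 FPKM in Yap1_KO1 and Yap1_KO2 against 6.85 in ESC. E2f3 was near its control in both knockdowns, with 19.8 FPKM in dESC_Yap1_KD1 against 18.4 in dESC_control and 6.95 in Yap1_KD1 against 7.85 in Control. With overexpression it was higher, at 14.7 FPKM in Yap1_OE against 9.81 in BirA. Of the repressing E2Fs, E2f4 was the most abundant at 107 to 158 FPKM. The atypical repressor E2f7 was at 9.46 FPKM in dESC_Yap1_KD1 against 14.3 in dESC_control, and at 4.83 FPKM in Yap1_KD1 against 6.70 in Control. E2f5, E2f6 and E2f8 lay within 1.5-fold of their control in the 5 comparisons of a perturbed library.

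Mycn carried the sole difference that passed a test. It fell to 52.7 and 56.7 FPKM in Yap1_KO1 and Yap1_KO2, against 104 in ESC, a log2 change of -0.91 (SE 0.11, limma, Benjamini-Hochberg adjusted p = 0.0436) seen in 2 of 2 libraries. The call ends with an adjusted p of 0.150 when small RNA rows are kept, 0.175 without a filter on low values and 0.237 with BirA and Control added as controls. Over all genes these settings called 18, 0 and 3 lower, where the main setting called 38. The call of Mycn held with the GC trend removed (limma, adjusted p = 0.0252) and with genes kept from 5 FPKM upward (adjusted p = 0.0372). These settings called 88 and 175 genes lower. It also held with pseudocounts of 5 and 0.5 and with median centring (limma, adjusted p = 0.0323, 0.0492 and 0.0488). Control itself had 54.0 FPKM, as little as the knockout-labelled pair. In Yap1_OE Mycn was at 245 FPKM against 120.2 in BirA, and the next highest library, dESC_Yap1_KD1, had 142 FPKM. In the undifferentiated knockdown Mycn was at 50.5 FPKM in Yap1_KD1 against 54.0 in Control, and in differentiated cells at 142 FPKM in dESC_Yap1_KD1 against 81.7 in dESC_control. In the joint fit of the undifferentiated arms the log2 change was -0.56 (SE 0.18, limma, adjusted p = 0.478), and with the differentiated knockdown arm added -0.16 (adjusted p = 0.870).

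Myc itself ran closer to its controls than Mycn did, except in the undifferentiated knockdown, where it was the farther of the pair. It was at 25.5 FPKM in Yap1_OE against 19.1 in BirA, at 36.8 and 48.8 FPKM in Yap1_KO1 and Yap1_KO2 against 49.8 in ESC, and at 8.25 FPKM in Yap1_KD1 against 9.97 in Control. In differentiated cells it was at 23.9 FPKM in dESC_Yap1_KD1 against 37.1 in dESC_control. Each of these differences was smaller than the 5.00-fold range among the undifferentiated controls. The log2 change of the knockout-labelled pair was -0.23 (SE 0.18, limma, adjusted p = 0.458), and with BirA and Control added as controls it was 0.96 (adjusted p = 0.327). With the GC trend removed it was -0.11 (limma, adjusted p = 0.784). Mycl was between 7.21 and 13.1 FPKM.

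The promoter of Mycn is shown because that gene carries the call, and those of Ccnb2 and Cdk1 because they were the pair of members whose levels were most alike over the 9 libraries (Pearson r = 0.964, Spearman rho = 0.883). Both differentiated libraries had the lowest levels of either gene, and libraries of the same arm are not independent. The sequences are the 250 bases before the annotated start in RefSeq on GRCm38.p6, another build than the mm9 named for the files, at chr12:12941837-12942086, chr9:70421555-70421804 and chr10:69352913-69353162, all on the minus strand. Capitals mark matches on either strand to TTTGAA, the core of the cell cycle homology region (CHR) of mitotic genes, and to the E2F motif letters TTTCCCGC, TTTCGCGC, TTTGGCGC and TTTGCCGC. No match to the E-box CACGTG or the TEAD core GGAATG lay in these windows.
Mycn: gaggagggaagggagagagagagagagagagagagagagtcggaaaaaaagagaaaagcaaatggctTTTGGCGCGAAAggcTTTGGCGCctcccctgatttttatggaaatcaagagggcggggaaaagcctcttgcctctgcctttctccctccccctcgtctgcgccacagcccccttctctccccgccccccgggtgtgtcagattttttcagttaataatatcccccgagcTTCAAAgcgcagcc
Ccnb2: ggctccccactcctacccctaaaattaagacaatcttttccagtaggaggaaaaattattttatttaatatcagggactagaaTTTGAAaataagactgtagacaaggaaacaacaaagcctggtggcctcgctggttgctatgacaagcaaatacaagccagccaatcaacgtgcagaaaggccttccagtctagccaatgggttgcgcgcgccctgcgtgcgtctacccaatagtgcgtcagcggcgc
Cdk1: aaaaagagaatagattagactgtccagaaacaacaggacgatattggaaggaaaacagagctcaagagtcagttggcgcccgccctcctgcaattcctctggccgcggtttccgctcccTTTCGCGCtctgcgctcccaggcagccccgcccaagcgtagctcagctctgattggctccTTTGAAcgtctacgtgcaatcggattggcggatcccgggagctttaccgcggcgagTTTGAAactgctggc
In Mycn the E2F matches begin 183, 179 and 168 bases before the start, and the 183 and 179 matches overlap each other. Mycn also has a CHR match, TTCAAA on the strand shown, 14 bases before the start. In Cdk1 a TTTCGCGC lies 131 bases before the start and TTTGAA lies 71 and 15 bases before it. Ccnb2 has a TTTGAA 167 bases before the start and a further CHR match that does not lie wholly within the bases shown. RefSeq promoters of 300 bases (50 of them past the start) were matched for 31 members. Of these, 29.0% held an E2F match and 35.5% a CHR match, where 4.92% and 14.0% of the promoters of 10122 genes at 1 FPKM or more in a library did. The E-box was found in 12.9% of members and 12% of genes, and the TEAD core in 6.45% and 14.5%. A match is a description of the letters and not a binding site.

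Cyclin E, which with CDK2 starts S phase, is represented by an abundant and a scarce gene. Ccne1 was among the highest members at 127 to 251 FPKM, with 251 FPKM in Yap1_OE against 185 in BirA. Ccne2 was at 6.25 FPKM in Yap1_OE against 3.72 in BirA and at 7.68 and 7.26 FPKM in Yap1_KO1 and Yap1_KO2 against 3.98 in ESC. It was at 8.29 FPKM in Yap1_KD1 against 5.68 in Control, but at 5.06 FPKM in dESC_Yap1_KD1 against 7.02 in dESC_control. Ccne2 was thus higher in overexpression and in all 3 undifferentiated libraries labelled for loss, and the knockout-labelled values lay above all 3 undifferentiated controls. Its log2 change was 0.77 (SE 0.15, adjusted p = 0.0712) in the knockout fit and 0.64 (SE 0.16, adjusted p = 0.315) in the joint fit, both by limma with Benjamini-Hochberg adjustment. With the GC trend removed these were 0.29 (adjusted p = 0.436) and 0.42 (adjusted p = 0.435), and with a pseudocount of 5 they were 0.47 and 0.41. With the differentiated arm added the joint change was 0.33 (limma, adjusted p = 0.660). With BirA and Control added as controls the knockout change was 0.65 (limma, adjusted p = 0.117). Ccna1, the germline cyclin A1, did not reach 1 FPKM and is listed at 0 in ESC and Yap1_KO2.

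Among the genes that drive S phase and mitosis, Ccna2, cyclin A2, was at 116 and 124 FPKM in Yap1_KO1 and Yap1_KO2 against 96.5 in ESC. Ccnb1, cyclin B1, was at 57.4 FPKM in Yap1_KO1 and 51.0 in Yap1_KO2 against 40.8 in ESC. Cdk2, the kinase partner of cyclins E and A, was at 47.0 FPKM in Yap1_KO1 and 52.6 in Yap1_KO2 against 36.0 in ESC. These 3 genes were above all undifferentiated controls in both libraries, with log2 changes of 0.31, 0.40 and 0.46 that missed the threshold (limma, Benjamini-Hochberg adjusted p = 0.144, 0.126 and 0.101). With the GC trend removed the change was 0.17 for Ccna2, 0.19 for Ccnb1 and 0.41 for Cdk2 (limma, adjusted p = 0.475, 0.509 and 0.159). With BirA and Control added as controls it was 0.39 for Ccna2, 0.39 for Ccnb1 and 0.29 for Cdk2 (limma, adjusted p = 0.137, 0.138 and 0.280). In all, 9 of 41 members were above the range of the 3 undifferentiated controls in both knockout-labelled libraries and 5 were below it. Across all genes 23.5% were above and 20.6% below, so the members' share above is near the background and their share below is under it. In Yap1_OE 14 members were above that range and 8 below it, beside 27.7% and 26.6% of all genes, and in Yap1_KD1 10 were above and 17 below, beside 28.5% and 28.1%. Ccnb2 and Cdk1 hardly differed in any Yap1 comparison. Ccnb2 was at 141 FPKM in Yap1_KD1 against 138 in Control and at 81.1 FPKM in dESC_Yap1_KD1 against 82.3 in dESC_control. Cdk1 was at 80.9 FPKM in Yap1_KD1 against 80.5 in Control.

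The CDK-activating phosphatases Cdc25a, Cdc25b and Cdc25c and their opponent, the kinase Wee1, lay within 1.5-fold of the control in every Yap1 comparison. The same held for the mitotic kinases Plk1, Aurka and Aurkb and for Birc5, the partner of Aurora B, with log2 ratios from -0.30 to 0.28. Aurkb had the narrowest fold range of all 43 members over the 9 libraries, 1.31-fold between 43.9 and 57.6 FPKM. Pcna, the sliding clamp of DNA replication, was at 177 FPKM in Yap1_OE against 231 in BirA and otherwise within 1.2-fold of its controls. Mki67, the Ki-67 antigen, was at 30.1 and 32.3 FPKM in Yap1_KO1 and Yap1_KO2 against 24.6 in ESC, and at 17.1 FPKM in dESC_Yap1_KD1 against 27.7 in dESC_control.

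**Figure D3:**
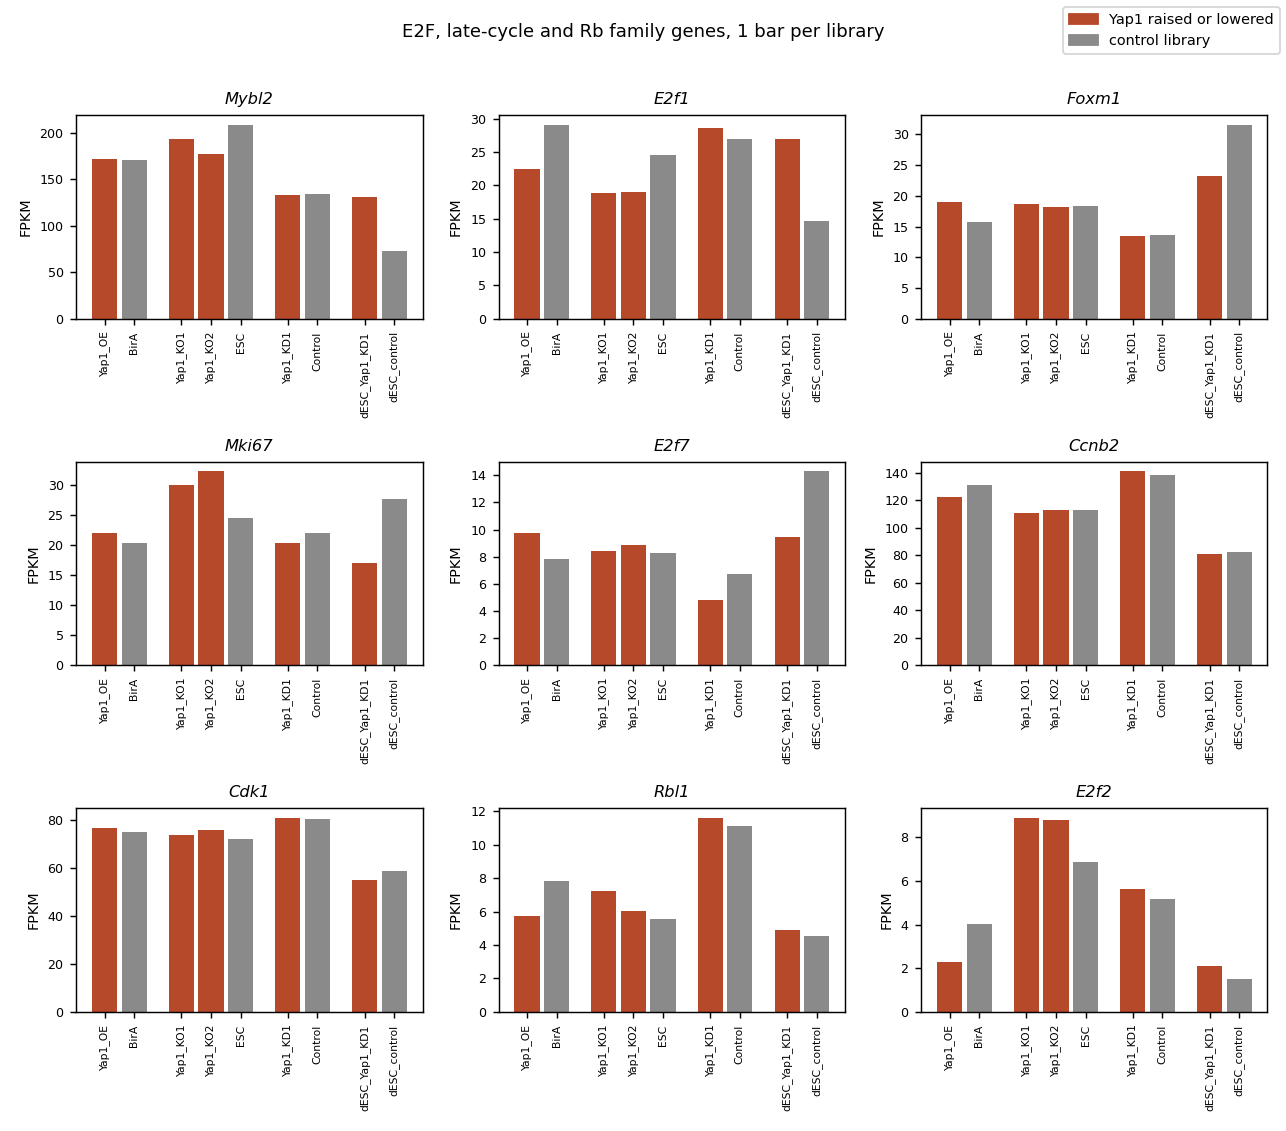
FPKM (vertical axis, from 0) of 9 E2F, late-cycle and Rb family genes, 1 bar per library, with perturbed libraries in red left of their grey controls. Mybl2 and E2f1 are at 131 and 27.0 FPKM in dESC_Yap1_KD1 and at 72.8 and 14.6 FPKM in dESC_control, while the pairs of bars of Ccnb2 and Cdk1 are nearly level.

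The differentiated knockdown was set against its own control. Mybl2, the B-Myb subunit that activates mitotic genes, was at 131 FPKM in dESC_Yap1_KD1 against 72.8 in dESC_control, beside 133 in Yap1_KD1 and 134 in Control. Foxm1, a forkhead activator of mitotic genes, was at 23.2 FPKM in dESC_Yap1_KD1 against 31.6 in dESC_control, beside 13.5 in Yap1_KD1 and 13.6 in Control. For both genes the differentiated knockdown lay between or beside the undifferentiated levels and the differentiated control. On the log2(FPKM + 1) scale, 0 of 40 members at 1 FPKM or more were 2-fold higher and 0 were 2-fold lower. Of all genes 1.54% and 4.5% were. In plain FPKM Cdkn2b was past 2-fold lower, at 1.44 in dESC_Yap1_KD1 against 3.28 in dESC_control. At 1.5-fold, E2f1, Mybl2 and Mycn were higher and Myc, Mki67 and Cdkn2b lower, 3 in each direction, beside 5.32% and 10.7% of all genes. The median log2 ratio of members was 0.01 and that of all genes -0.01. The pluripotency markers also differed, with a sum of 2551 FPKM in dESC_Yap1_KD1 and 1831 in dESC_control. Of the 8 markers 7 were higher, while Klf4 was lower, at 5.83 FPKM in dESC_Yap1_KD1 against 9.1 in dESC_control. The 12 markers of differentiated derivatives, of which Sox17 and Foxa2 stayed below 1 FPKM in all libraries, summed to 361 FPKM in dESC_Yap1_KD1 and 2337 in dESC_control. Most of these sums was Krt8, Krt18 and Tagln, at 65.3, 102 and 156 FPKM in dESC_Yap1_KD1 and 486, 832 and 881 in dESC_control. Gata4 was at 1.43 FPKM in both. The part of these markers in the result was not tested.

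With overexpression, Cdkn2a, Cdkn2b and Mycn were 2-fold higher, 3 of 40 members at 1 FPKM or more, beside 1.36% of all genes. None of the 40 was 2-fold lower, beside 2.14% of all genes. Ccnd1, Cdk6 and Ccne2 were the others past 1.5-fold upward (6 in all, beside 5.17% of all genes) and E2f2 the member past it downward (2.30 FPKM in Yap1_OE against 4.02 in BirA, beside 7.73% of all genes). The median log2 ratio of members was 0.14 and that of all genes 0.02. Against ESC in place of BirA, Ccnd2 and E2f2 were at least 2-fold lower, with 14.1 and 6.85 FPKM in ESC. Mycn, Cdkn2a and Cdkn2b were above ESC too, which had 104, 8.87 and 1.02 FPKM of them. The share of all genes past 2-fold against ESC is not given, so no reading rests on that swap. Markers of differentiated derivatives summed to 273 FPKM in Yap1_OE and 31.0 in BirA. Most of these sums was Krt8, Krt18 and Tagln, at 63.4, 129.6 and 66.3 FPKM in Yap1_OE and 7.32, 17.5 and 4.01 in BirA. Pluripotency markers summed to 4071 FPKM in Yap1_OE and 5742 in BirA, with Dppa5a alone at 1933 and 2990, and 0 of the 8 were above BirA. The part of these markers in the result was not tested.

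In the knockout fit 0 of 39 members were called higher and 1, Mycn, lower by limma with Benjamini-Hochberg adjustment at 0.05, beside 0.0874% and 0.332% of 11444 genes. At an unadjusted p under 0.05 there were 15 members, beside 25.8% of all genes. In Yap1_KO1 alone Rb1 was 2-fold higher and Ccnd2 2-fold lower, beside 0.448% and 1.45% of all genes. In Yap1_KO2 no member was either on the log2(FPKM + 1) scale, beside 0.469% and 1.44%. In plain FPKM Cdkn2a was past 2-fold lower there, at 4.22 against 8.87 in ESC. No member was 2-fold away from ESC in the same direction in both libraries, beside 0.157% of genes higher and 0.795% lower. Past 1.5-fold in both were Ccne2 on the higher side and Ccnd2 and Mycn on the lower, beside 2.53% and 3.27% of all genes. The fibroblast markers summed to 39.7 and 32.2 FPKM in Yap1_KO1 and Yap1_KO2 against 19.6 in ESC, nearly all of it Thy1, while Lum, Dcn and Col3a1 are listed at 0 in these libraries. In the joint fit 0 of 41 members passed in either direction by limma, beside 0.00834% higher and 0.025% lower of 11997 genes, and 8 members had an unadjusted p under 0.05, beside 7.64% of all genes. In the undifferentiated knockdown alone no member was past 1.5-fold in either direction, beside 1.86% of genes higher and 1.7% lower, and hence 0 past 2-fold, beside 0.204% and 0.238%.

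**Figure D4:**
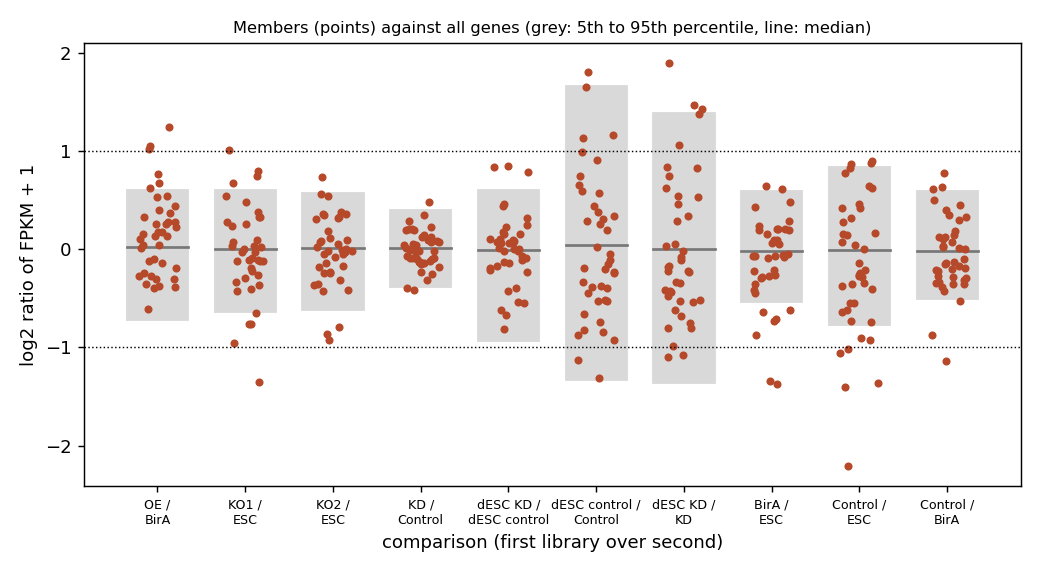
Log2 ratio of FPKM + 1 of each member that reached 1 FPKM in either library (points) in 10 comparisons, over the 5th to 95th percentile of all genes (grey boxes, with the median as a line); dotted lines mark 2-fold. Points are tightest in KD / Control, from -0.42 to 0.48, and the lowest point in the plot is Myc in Control / ESC, at -2.21.

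More members were 2-fold apart between the differentiated and undifferentiated controls than between any perturbed library and its control. The same was true of all genes. Myc was at 37.1 FPKM in dESC_control against 9.97 in Control and Ccnd1 at 87.9 FPKM in dESC_control against 27.2 in Control. E2f3 was at 18.4 FPKM in dESC_control against 7.85 in Control, and Foxm1 at 31.6 in dESC_control against 13.6 in Control. E2f2 was lower, at 1.5 FPKM in dESC_control against 5.19 in Control, as was Rbl1 with 4.51 in dESC_control against 11.1 in Control. On the log2(FPKM + 1) scale these were all of the members past 2-fold. They were 4 of 41 higher and 2 lower, beside 12.9% and 9.85% of all genes, so both shares were under the background. In plain FPKM E2f7 was past 2-fold higher too, at 14.3 in dESC_control against 6.70 in Control. Rbl2 was likewise past 2-fold lower, at 0.308 FPKM in dESC_control against 1.31 in Control. Past 1.5-fold were 9 higher and 8 lower, beside 24.7% and 20.8%. ESC, an undifferentiated control of another arm, had 49.8 FPKM of Myc and 73.4 of Ccnd1, so these differences depend on the control chosen. In knockdown cells 5 members were 2-fold higher after differentiation and 2 lower, beside 10.2% and 10.1% of all genes, and past 1.5-fold 9 and 8, beside 21.8% and 21.1%. The 5 were Ccnd1, Mycn, Myc, E2f3 and Ccnd2, and the 2 were Rbl1 and E2f2. Rbl2, at 0.280 FPKM in dESC_Yap1_KD1 against 1.54 in Yap1_KD1, was past 2-fold lower in plain FPKM only. Mycn was at 142 FPKM in dESC_Yap1_KD1 against 50.5 in Yap1_KD1 and Ccnd2 at 11.0 FPKM in dESC_Yap1_KD1 against 4.78 in Yap1_KD1.

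Directions were also set side by side over the knockout mean, both knockdowns and overexpression, which have separate controls. Cdk2, Cdkn1b, Rbl1 and E2f2 were above the control in every comparison labelled for loss and below it in overexpression, 4 of 41 members, beside 8.07% of all genes. Ccnd1, Cdk6, Cdkn2b, E2f6, E2f8 and Myc were below in the knockout mean and both knockdowns and above in overexpression. They were 6 of 41, beside 9.49% of all genes. By single library, Cdkn2b was above ESC in Yap1_KO1 (1.12 against 1.02 FPKM) and E2f8 in Yap1_KO2 (33.3 against 32.1 FPKM). These shares of 9.76% and 14.6% are not far from the background, and many of the ratios are small. With BirA and Control added as controls, the knockout change of Rbl1, Ccnd1, E2f8 and Myc lay on the other side.

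The wider machinery was read from lists of other genes. The background for counts at an unadjusted p under 0.05 in the knockout fit is 25.8% of all genes, both directions together. Of 29 mitosis genes, 0 were called in either direction by limma in the knockout fit with Benjamini-Hochberg adjustment, 10 had an unadjusted p under 0.05 on the higher side and 1 on the lower, and the median log2 change was 0.20. Of 25 S phase and replication genes 0 were called, with a median of -0.08 and 2 higher and 4 lower at an unadjusted p under 0.05. Of 25 other cell cycle regulators 0 were called, with 7 higher and 1 lower at an unadjusted p. In the other comparisons of a perturbed library with its control, 0 mitosis and 0 replication genes were 2-fold apart in either direction. Of 18 Myc targets, genes of ribosome and nucleotide synthesis for the most part, 0 were called by limma in the knockout fit, with 2 higher and 4 lower at an unadjusted p. Their median log2 ratio was 0.23 in Yap1_OE over BirA with 15 of 18 above 0, beside 0.02 for all genes. It was -0.10 in Yap1_KO1 and 0.02 in Yap1_KO2 over ESC, -0.04 in Yap1_KD1 over Control and 0.09 in dESC_Yap1_KD1 over dESC_control, beside 0.00, 0.02, 0.01 and -0.01 for all genes. For scale, Control over ESC gave -0.56. Of 9 Myc network genes, Max and its relatives, 0 were called.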

How the data were processed

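The authors deposited 1 table of expression values per gene and library, made with TopHat2 and Cuffdiff on mm9, per the submitters' processing notes. Neither versions nor the annotation were stated. The table does not name its unit, and the deposited values were read as FPKM because of the tool and because low values step with transcript length and depth. Blank rows (4746 of 23277) and 27 rows whose symbol had become a date were dropped, leaving 18504 genes and no value column without a sample. The 179 small RNA rows held 16.0 to 23.8% of the summed FPKM and were left out of tests and counts.

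Log2 ratios are of FPKM + 1, which understates changes of low genes, for genes that reached 1 FPKM in any library compared. Fits were made in R 4.3.3 with limma 3.58.1 (trended variance prior; p-values adjusted by Benjamini-Hochberg, threshold 0.05) and were tested on simulated data. The knockout fit has 1 residual degree of freedom and takes the lone ESC library to vary like the knockout pair; the joint fit has an arm term and 2 residual degrees of freedom. Comparisons of single libraries are counts past 2-fold or 1.5-fold on the log2(FPKM + 1) scale, beside the share of all genes. Depth came from the steps between values of 102 genes, with quartiles of 12.7 M and 14.9 M around 14.6 M for BirA, and is an estimate. Alternatives were other pseudocounts, filters, centring, a GC correction, kept small RNA rows, other controls and left-out libraries. The members and gene lists were chosen with earlier results of these data known. Values are given for the members farthest from their control in a comparison, those past 2-fold or called, and those that complete a role group.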

Additional observations from a re-analysis of the deposited data

Results flagged for a closer look

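Ccne2, cyclin E2, lay on opposite sides of its control under knockdown in differentiated and undifferentiated cells. Its log2 ratio was -0.40 in dESC_Yap1_KD1 over dESC_control and 0.48 in Yap1_KD1 over Control. Each side is a single pair of libraries, and the difference between the states was not tested.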

How the results depend on the processing

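Of 130 counts of members recomputed under other settings, 116 stayed within 1.5 times and 14 moved. With a pseudocount of 5, the members 2-fold higher numbered 0 in Yap1_OE over BirA and 2 in dESC_control over Control, and those 2-fold lower numbered 0 in dESC_control over Control and 0 in dESC_Yap1_KD1 over Yap1_KD1. Against ESC as the control, 2 members were 2-fold lower in Yap1_OE, and in Yap1_KD1 2 were higher and 8 lower. Against BirA, 1 was higher and 2 were lower in Yap1_KD1. Shares of all genes are not given for these swapped controls or for the pseudocount of 5, so no reading rests on those counts. Control over ESC alone had 0 members 2-fold higher and 5 lower, beside 2.63% and 1.71% of all genes. The knockout fit called 1 of 37 members higher from 5 FPKM upward, beside 213 of 8456 genes. It called 0 members lower without a filter, with small RNA rows kept, and with BirA and Control added as controls. Of all genes these settings called 0, 18 and 3 lower. This last setting reversed Ccnd1 to 0.16 and Myc to 0.96. Further members changed sign there, among them Rbl1 from 0.22 to -0.22 and E2f8 from -0.10 to 0.40. Cdc25a went from -0.13 to 0.26 and Mybl2 from -0.17 to 0.14. The log2 change of Mycn ran from -0.93 to -0.67 over the settings of the knockout fit with both libraries. The joint fit called 1 lower without the knockdown pair, which is then the knockout fit, and 0 without either knockout library. Leaving a library out of the knockout fit leaves no residual degrees of freedom, so only values result. Of 1809 values of single members, 1619 kept their side of the threshold or moved by less than the pooled SD of the knockout pair, 0.143. The causes were not tested. The range of the 3 undifferentiated controls and the 2-fold counts with small RNA rows were chosen after seeing the data. No paired analysis was possible because the groups compared share fewer than 2 replicate numbers. Estimated fragments limit Ccna1 (0 to 26.1) and Cdkn2c (0 to 18.1), which stayed below 1 FPKM and entered a fit only without a filter, where neither passed (limma, smallest adjusted p = 0.776).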
